A study of Mus musculus with 9 samples.

Results

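The small proline-rich genes, whose symbols begin with Sprr, were described as a family across 3 groups of mouse thymic cells. The members were chosen by symbol: Sprr1a, Sprr1b, Sprr2b, Sprr2d, Sprr2f, Sprr2h, Sprr2i and Sprr3. Of these 8 genes, 7 had a probe set annotated to that symbol alone, 1 probe set each, so they made up 7 of the 18194 genes tested. Sprr2b had none and is not analysed here. The RNA came from cells with the fluorescent protein ZsGreen (ZsG plus), from medullary thymic epithelial cells without it (ZsG minus mTEC) and from cortical thymic epithelial cells without it (ZsG minus cTEC), with 3 arrays per group. All samples are labelled C57BL/6, and the mice were 8 to 20 weeks old. The reporter mice carried a bacterial artificial chromosome transgene in which ZsGreen was inserted at the first codon of Tslp. This gene encodes thymic stromal lymphopoietin, an epithelial cytokine. The reporter therefore depends on the Tslp sequences held by that transgene. Which sort markers were used, and which epithelium the ZsG plus cells came from, is not given in the sources used here. The titles define the groups, although the label for cell type is keratinocytes throughout. Below, mTEC and cTEC stand for the groups without ZsGreen and ZsG plus for the group with it.

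Sprr proteins are short and rich in proline. In the outer layers of stratified epithelia, transglutaminases cross-link them with loricrin, involucrin and other precursors into the cornified envelope, the tough shell under the membrane of a terminally differentiated keratinocyte. Their genes lie in the epidermal differentiation complex beside those of filaggrin-type and late cornified envelope proteins. In the thymus, some medullary epithelial cells take on keratinocyte traits as they age and gather in Hassall's corpuscles, while cortical epithelial cells select developing T cells.

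The 8 members lay within 1 run of 14 genes on mouse chromosome 3, of which 13 carried a Sprr symbol, in RefSeq's annotation of GRCm38.p6. In chromosome order the members were Sprr2b, Sprr2d, Sprr2f, Sprr2h, Sprr2i, Sprr1b, Sprr3 and Sprr1a. The 250 bases upstream of the annotated start were read for each from RefSeq and searched on both strands for an AP-1 site (TGANTCA), an octamer (ATTTGCAT) and a TATA box (TATAAA). AP-1 is a dimer of Jun and Fos family factors, the octamer is bound by POU factors, and the TATA box helps to place the start of transcription. The windows of the 5 members below are shown because their values carry most of the results, in the orientation of transcription with every match in capitals. They lay at chr3:92485882-92486131 for Sprr1a, chr3:92438780-92439029 for Sprr1b and chr3:92458721-92458970 for Sprr3, all on the minus strand, and at chr3:92338890-92339139 for Sprr2d and chr3:92407741-92407990 for Sprr2i, both on the plus strand.
Sprr1a: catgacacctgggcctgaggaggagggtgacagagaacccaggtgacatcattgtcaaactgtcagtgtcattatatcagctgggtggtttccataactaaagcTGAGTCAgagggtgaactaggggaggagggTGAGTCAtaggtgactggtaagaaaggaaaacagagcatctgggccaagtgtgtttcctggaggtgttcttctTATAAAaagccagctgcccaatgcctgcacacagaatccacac
Sprr1b: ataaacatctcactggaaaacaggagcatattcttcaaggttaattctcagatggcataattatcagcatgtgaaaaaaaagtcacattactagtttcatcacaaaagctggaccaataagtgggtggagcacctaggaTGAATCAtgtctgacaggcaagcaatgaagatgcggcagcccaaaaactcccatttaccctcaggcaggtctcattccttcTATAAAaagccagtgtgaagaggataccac
Sprr2d: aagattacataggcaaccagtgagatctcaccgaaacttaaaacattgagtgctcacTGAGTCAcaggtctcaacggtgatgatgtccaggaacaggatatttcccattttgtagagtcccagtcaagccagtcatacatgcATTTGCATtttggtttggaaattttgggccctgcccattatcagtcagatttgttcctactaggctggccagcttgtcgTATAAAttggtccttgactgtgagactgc
Sprr2i: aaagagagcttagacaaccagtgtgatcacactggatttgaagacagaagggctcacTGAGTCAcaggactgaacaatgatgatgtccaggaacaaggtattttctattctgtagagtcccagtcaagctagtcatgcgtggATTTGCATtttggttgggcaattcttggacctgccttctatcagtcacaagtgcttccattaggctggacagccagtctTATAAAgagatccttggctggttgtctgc
Sprr3: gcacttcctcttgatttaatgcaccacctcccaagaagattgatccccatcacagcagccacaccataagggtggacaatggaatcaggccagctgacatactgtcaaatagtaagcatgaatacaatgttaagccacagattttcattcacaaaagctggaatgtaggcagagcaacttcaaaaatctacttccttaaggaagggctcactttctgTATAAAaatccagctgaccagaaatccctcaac

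A TATA box was found in 8 of 8 members, against 12.4% of all 32851 windows of the same length. An AP-1 match was found in 7 of 8, against 6.75% of all windows. Sprr1a held 2 of them, with the first base at -146 and -116 from the start, Sprr1b held 1 at -111, the 5 Sprr2 members held 1 each between -198 and -193, and Sprr3 held none in this window. The octamer was found in 5 of 8, against 1.6% of all windows, and these were the 5 Sprr2 members, where it began between -112 and -108. None of the matches overlapped another, and the AP-1 letters read the same on both strands. Between Sprr2 members the windows were 60.1 to 77.5% identical in global alignments (10 pairs, median 65.0%). The other 18 pairs were 48.8 to 57.8% identical (median 51.3%). A match describes the letters in this window, and binding was not measured.

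The array intensities had been scaled so that each array had a trimmed mean of 1250. The median intensity over all probe sets still differed, at 230 to 316 on the ZsG plus arrays, 366 to 424 on the mTEC arrays and 376 to 404 on the cTEC arrays. Hybridization controls were brighter on the ZsG plus arrays by 1.10 on the log2 scale than in mTEC and by 1.16 than in cTEC, and the ratio of the 3' to the 5' Gapdh probe sets was 6.71 to 10.6 there against 4.55 to 5.97 on the other 6 arrays. The median SD of a gene within a group was 1.30 in ZsG plus, 0.63 in mTEC and 0.61 in cTEC (log2). Probe sets for the bacterial Dap and Phe sequences, used here as a guide to dim signal, ran from 0.976 to 341 with a 95th percentile of 153. As a check of the labels, the cortical genes Prss16 and Psmb11 in ZsG plus fell by 5.38 ± 0.64 and fell by 5.09 ± 1.03 from their cTEC level (limma adjusted p = 0.012 and 0.045), and the medullary regulators Aire and Fezf2 rose by 3.11 ± 0.55 and 3.96 ± 0.61 (limma adjusted p = 0.0358 and 0.0258). These were 2 of the 3 called among 8 cTEC markers (list median -3.80) and the 2 called among 8 mTEC markers (list median 0.39, with the basal keratin gene Krt5 at 0.35 ± 0.70). Of all genes 1.14% were called lower and 0.599% higher in this comparison. In mTEC against cTEC, 1 of the 8 cTEC markers was called, Prss16, which fell by 4.04 ± 0.64, with Psmb11 at -4.11 ± 1.03 (limma adjusted p = 0.12) and a list median of -2.44. The arrays of 1 other, Foxn1, lay wholly higher in mTEC. Of the 8 mTEC markers 2 were called there, Aire and Fezf2, which rose by 3.33 and 3.70, with Krt5 at -0.03 ± 0.70 and a list median of 1.17. Over all genes 0.0989% were called lower and 0.528% higher in mTEC against cTEC.

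Sprr1a was the member that passed the test, and it did so against cTEC in both other groups. Its protein is a cornified envelope precursor that is also known from regenerating nerve cells. Its intensities were 67282, 98075 and 49665 for ZsG plus replicates 1 to 3, 29240.3, 33131 and 22849 for mTEC, and 2166, 2539.7 and 4796 for cTEC, and values below follow the same order of replicates. The 3 groups did not overlap: every ZsG plus array was above every mTEC array, and those were above every cTEC array. All 9 values lay above the Dap and Phe range. Against cTEC, Sprr1a rose by 4.53 ± 0.56 on the log2 scale in ZsG plus, 23.2-fold (95% interval 3.26 to 5.80, limma adjusted p = 0.0129). In mTEC it rose by 3.24 ± 0.56, 9.43-fold (1.97 to 4.51, limma adjusted p = 0.0491). The difference between ZsG plus and mTEC was 1.30 ± 0.56 (0.03 to 2.57), which did not pass (limma adjusted p = 0.361). These comparisons share arrays, so they are not independent. In bulk samples, fewer cells of a type and less RNA per cell cannot be told apart.

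The Sprr1a call in ZsG plus against cTEC was lost without cTEC replicate 1 or replicate 2 (limma adjusted p = 0.0895 and 0.07), though the differences were still 4.30 and 4.42. The adjusted p depends on all genes, of which 0 to 735 passed with an array left out, beside 317 with all arrays. Over 19 alternatives the adjusted p of Sprr1a ran from 0.00272 to 0.0895. The call was also lost when only the 6 arrays compared were fitted (adjusted p = 0.0885). It was kept when arrays were scaled on the hybridization controls, at 3.38 (adjusted p = 0.0177). The call in mTEC against cTEC was lost without any single array of either group, while the difference stayed between 3.01 and 3.58 over the 19 alternatives. Scaled on the hybridization controls, the difference between ZsG plus and mTEC was 0.19 ± 0.64 (limma adjusted p = 0.844, from 0.241 to 0.844 over the alternatives).

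**Figure D1:**
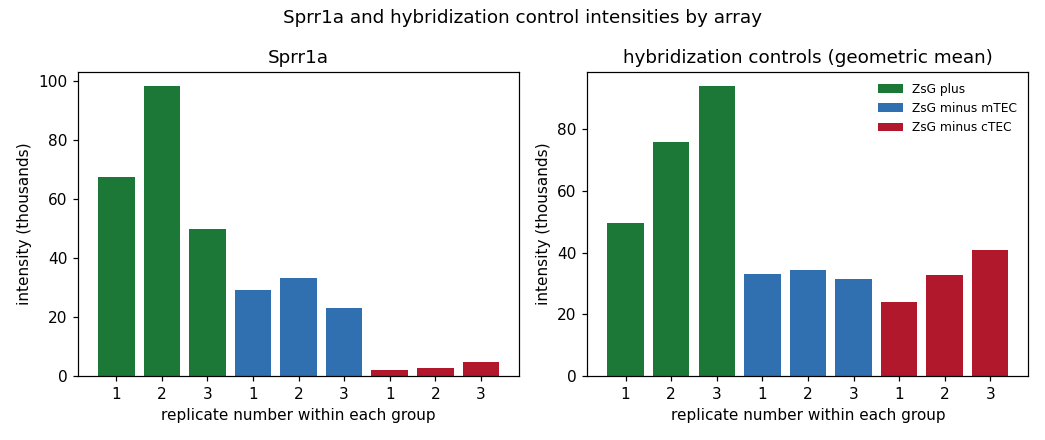
Bars show the intensity, on a linear axis from 0, of Sprr1a on the left and the geometric mean of the hybridization controls on the right for each of the 9 arrays, coloured by group. Sprr1a read 49665 or more on the ZsG plus arrays and 4796 or less on the cTEC arrays, and the controls were also brightest on the ZsG plus arrays.

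Sprr1b, a close relative of Sprr1a used as a marker of squamous differentiation in airway epithelium, had another order of levels. It read 2883, 9142 and 1327 in ZsG plus, 7809, 10551 and 13936 in mTEC, and 2156, 123 and 5197 in cTEC. The mTEC arrays lay above every cTEC array, while ZsG plus overlapped both groups. Its geometric means were 3270.2, 10472 and 1112 in that order. mTEC exceeded cTEC by 3.24 ± 1.29 (0.32 to 6.15), the size of the Sprr1a difference with a larger SE, and did not pass (limma adjusted p = 0.344). ZsG plus differed from mTEC by -1.68 ± 1.29 and from cTEC by 1.56 ± 1.29 (limma adjusted p = 0.588 and 0.551), and the second difference was -0.03 without cTEC replicate 2, the array that read 123.

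The Sprr2 genes encode the shortest proteins of the family and are the most numerous in the mouse. None of the 4 measured members passed the adjusted threshold in any of the 3 comparisons. Sprr2d read 2608, 3507 and 38.9 in ZsG plus, 1879.8, 1854 and 1765 in mTEC, and 402, 45.1 and 115 in cTEC. ZsG plus replicate 3 lay within the Dap and Phe range and below every other Sprr2d value, whereas the other 2 ZsG plus arrays were above all arrays of the other groups. The 3 mTEC arrays lay close together, with an SD of 0.05 on the log2 scale, and above every cTEC array. Sprr2d was 3.84 ± 1.57 higher in mTEC than in cTEC (limma adjusted p = 0.356). The fit pools the spread of all groups, so this error includes that of ZsG plus (SD 3.63, beside 1.58 in cTEC). ZsG plus differed from mTEC by -1.37 ± 1.57 and from cTEC by 2.47 ± 1.57 (limma adjusted p = 0.725 and 0.432). Without ZsG plus replicate 3 these became 0.72, with the sign turned, and 4.57, past the threshold (limma adjusted p = 0.042, from 0.042 to 0.713 over the alternatives).

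Sprr2i read 62.6, 151 and 6.10 in ZsG plus, 1036, 439 and 934 in mTEC, and 5.14, 5.36 and 119.6 in cTEC. Only the mTEC arrays lay above the Dap and Phe range, and they lay above all 6 other arrays. Because the other values were as dim as those controls, the sizes that follow depend on how dim signal is treated. Against cTEC the mTEC level was higher by 5.66 ± 1.44 (2.41 to 8.91, limma adjusted p = 0.127), and against it the ZsG plus level differed by -4.28 ± 1.44 (-7.53 to -1.03, limma adjusted p = 0.264). With 50 added to each intensity before the logarithm, the first of these was 3.33 and passed the threshold (limma adjusted p = 0.035). It passed too with array weights, at 6.17 (limma adjusted p = 0.013, from 0.013 to 0.358 over the alternatives). ZsG plus and cTEC differed by 1.38 ± 1.44 (limma adjusted p = 0.642).

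Sprr2f, known as a gene induced by oestrogen in the mouse uterus, read 62.5, 212 and 989.6 in ZsG plus, 64.9, 870.2 and 484 in mTEC, and 39.7, 34.4 and 401 in cTEC. Each group held arrays within and above the Dap and Phe range, and all 3 groups overlapped. Its differences were -0.35 ± 1.38 for ZsG plus against mTEC, 1.53 ± 1.38 for ZsG plus against cTEC and 1.88 ± 1.38 for mTEC against cTEC (limma adjusted p = 0.933, 0.588 and 0.694). The first of these changed sign with quantile normalization (0.17) and with centring on the median (0.27). Sprr2h read 20.4, 45.6 and 294 in ZsG plus, 171, 201 and 108 in mTEC, and 18.8, 3.33 and 147 in cTEC, all within the Dap and Phe range and with all 3 groups overlapping. Its differences were -1.26 ± 1.37, 1.63 ± 1.37 and 2.89 ± 1.37 in the same order (limma adjusted p = 0.71, 0.556 and 0.445). The Sprr2h probe set is of the kind whose probes can match transcripts of several related genes, so its signal may hold other Sprr2 transcripts.

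ZsG plus replicate 3 was not low for the whole family. It was the dimmest of its group for Sprr1a, Sprr1b, Sprr2d and Sprr2i and the brightest for Sprr2f, Sprr2h and Sprr3. Within ZsG plus the SD of a member ran from 0.49 to 3.63 on the log2 scale with a median of 1.97, beside 1.30 for all genes. In mTEC the members' median SD was 0.46, beside 0.63, and in cTEC it was 1.99, beside 0.61.

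Sprr3, known as a protein of internal squamous epithelia such as the oesophagus, read 502, 254 and 609 in ZsG plus, 125, 554 and 549.9 in mTEC, and 211, 103 and 205 in cTEC. Every ZsG plus array was above every cTEC array, and mTEC overlapped both. All cTEC arrays, ZsG plus replicate 2 and mTEC replicate 1 lay within the Dap and Phe range. The geometric means of Sprr3 were 427, 337 and 165. ZsG plus exceeded cTEC by 1.37 ± 0.74 (-0.30 to 3.05, limma adjusted p = 0.354), mTEC exceeded it by 1.03 ± 0.74 (-0.64 to 2.70, adjusted p = 0.682), and ZsG plus differed from mTEC by 0.34 ± 0.74 (-1.33 to 2.01, adjusted p = 0.866). The last of these was -0.76 when arrays were scaled on the hybridization controls and -0.37 without mTEC replicate 1.

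**Figure D2:**
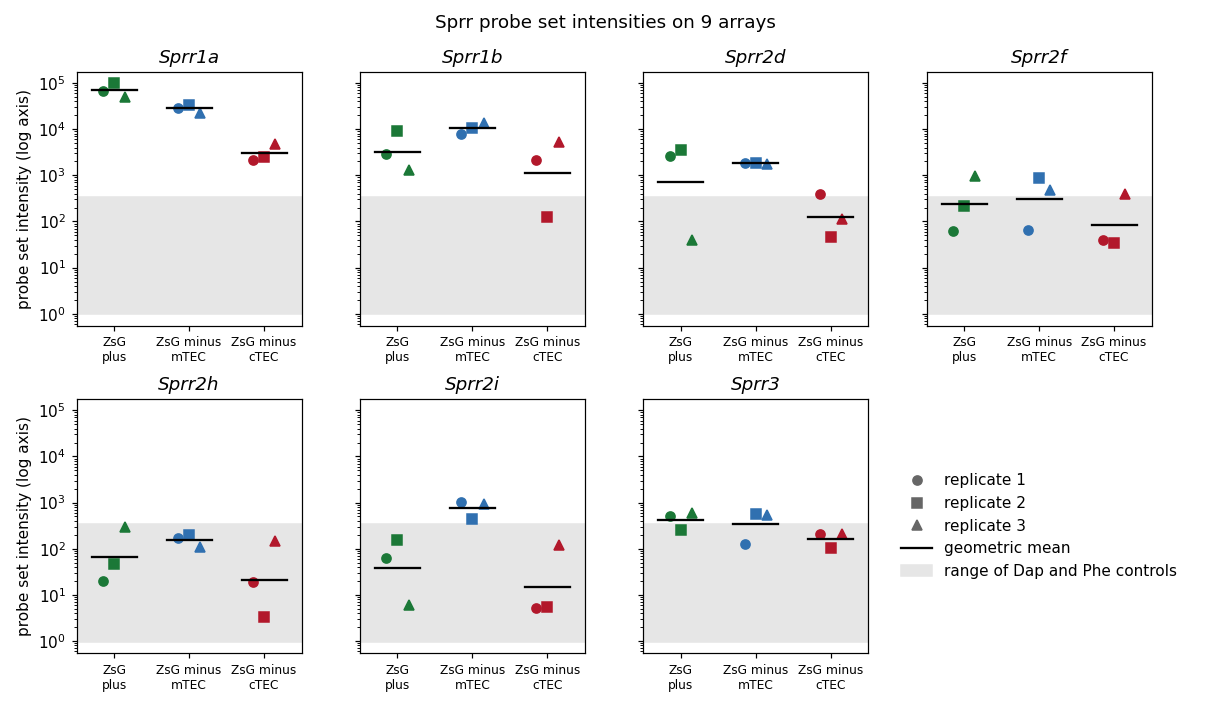
Each point is the intensity of 1 probe set on 1 array (log axis), with a marker shape per replicate number, a black line at the geometric mean of the 3 arrays of a group and a grey band over the Dap and Phe range of 0.976 to 341. The groups separate fully for Sprr1a, and ZsG plus replicate 3 (triangle) is low for Sprr2d and Sprr2i but high for Sprr2f and Sprr2h.

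Set out by comparison, ZsG plus against cTEC had 7 of 7 members with a higher mean in ZsG plus, and 1 of 7, Sprr1a, passed the threshold, where 0.599% of all genes were called higher, 1.14% lower and 1.74% in all. An unadjusted limma p under 0.05 was reached by 1 of 7, against 7.44% of all genes on the higher side. In 2 of 7, Sprr1a and Sprr3, the ZsG plus arrays all lay above the cTEC arrays, as they did for 9.9% of all genes. The median difference was 1.56, beside -0.14 over all genes. For 3 of 7 members, Sprr2f, Sprr2h and Sprr2i, both group means lay within the Dap and Phe range. The 7 signs were the same with quantile normalization, centring and scaling on the hybridization controls. With single arrays left out, 1 sign turned, that of Sprr1b without cTEC replicate 2. In mTEC against cTEC, 7 of 7 means were again higher, and 1 of 7, Sprr1a, was called, where 0.528% of all genes were called higher and 0.0989% lower. The arrays did not overlap for 4 of 7 (Sprr1a, Sprr1b, Sprr2d and Sprr2i), against 16.6% of all genes that lay wholly higher and 11.8% that lay wholly lower, and the same 4 had an unadjusted limma p under 0.05 on the higher side, against 8.4% of all genes there and 3.9% on the lower side. The median difference was 3.24, beside 0.09 over all genes. Both group means lay within the Dap and Phe range for 3 of 7 here, Sprr2f, Sprr2h and Sprr3.

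In the comparison of ZsG plus with mTEC the members' differences lay on both sides of 0. In limma's test 0 of 7 members passed the adjusted threshold, where 0.0165% of all genes were called higher, 0.203% lower and 0.22% in all. At an unadjusted limma p under 0.05 there were 2 of 7, against 13.4% of all genes, 3.2% higher and 10.2% lower. Sprr1a was on the higher side and Sprr2i on the lower. These were also the 2 members whose arrays did not overlap, against 5.77% of all genes that lay wholly higher and 12.3% that lay wholly lower. Sprr1a and Sprr3 had the higher mean in ZsG plus and the other 5 had it in mTEC, with a median of -1.26 beside -0.33 over all genes. Both means of Sprr2f and of Sprr2h lay within the Dap and Phe range. Scaled on the hybridization controls, Sprr1a differed by 0.19 and Sprr3 by -0.76. Sprr2d changed sign in 1 alternative and Sprr2f in 4.

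**Figure D3:**
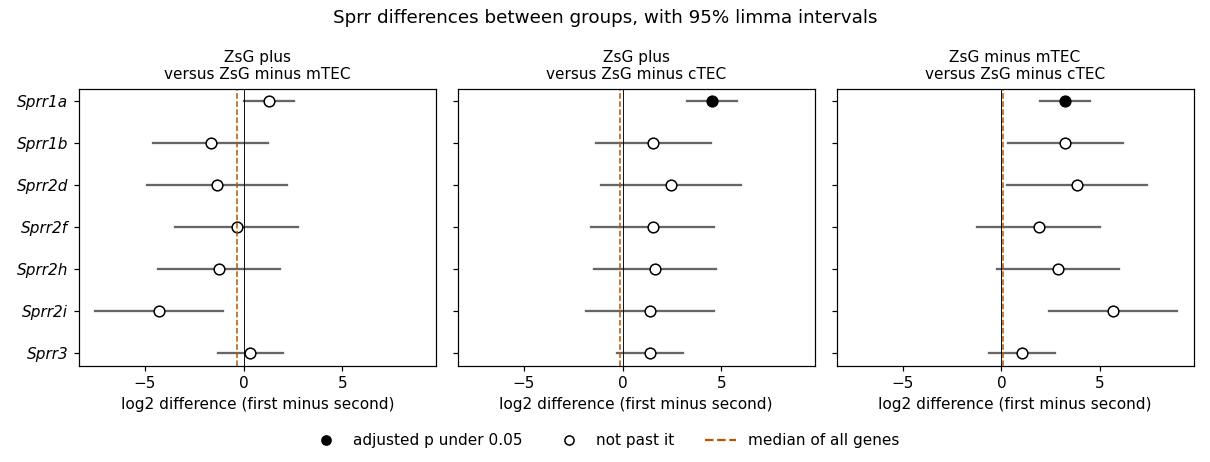
Each point is a member's log2 difference (first group minus second) with its 95% limma interval, filled where the adjusted p is under 0.05, and the dashed line is the median of all genes. The filled points are Sprr1a at 4.53 and 3.24 against cTEC, and the points fall on both sides of 0 in ZsG plus against mTEC.

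By their group means, 5 members (Sprr1b, Sprr2d, Sprr2f, Sprr2h and Sprr2i) were ordered mTEC, ZsG plus, cTEC from high to low, an order held by 17.8% of all genes. The other 2, Sprr1a and Sprr3, were ordered ZsG plus, mTEC, cTEC, an order held by 16.2%. cTEC was thus lowest for 7 of 7 members, and for 34.0% of all genes. For Sprr2f and Sprr2h every group mean lay within the Dap and Phe range. Neighbours in these orders did not differ past the adjusted threshold except mTEC and cTEC for Sprr1a.

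Of the Sprr genes outside the members, 2 had a probe set of their own, Sprr2k and the pseudogene Sprr2j-ps. Sprr2k read 646, 887 and 719 in ZsG plus, 439.9, 509 and 817 in mTEC, and 73.1, 276 and 281 in cTEC, where all arrays lay within the Dap and Phe range. The arrays of ZsG plus and of mTEC lay wholly above those of cTEC, with differences of 2.06 ± 0.66 and 1.67 ± 0.66, and neither difference passed (limma adjusted p = 0.147 and 0.333). Sprr2j-ps read 135, 101 and 495, then 281, 126 and 635, then 54.5, 136 and 91.9 in the same order, with overlap between all groups and no difference past the threshold (limma adjusted p from 0.469 to 0.784). Sprr2k held an AP-1 match at -196 and another at -182, and an octamer at -109, within its own upstream window.

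Tslp, the gene that the reporter was built on, read 526, 23.4 and 953 in ZsG plus, 244, 472 and 359 in mTEC, and 264, 88.8 and 576 in cTEC. The ZsG plus arrays spanned the values of both other groups. Its differences were -0.61 ± 1.30 against mTEC and -0.07 ± 1.30 against cTEC (limma adjusted p = 0.864 and 0.983). ZsG plus replicate 2 held the dimmest Tslp value. This value lay within the Dap and Phe range, as did those of mTEC replicate 1 and cTEC replicates 1 and 2. ZsG plus replicate 2 was the brightest of its group for Sprr1a, Sprr1b, Sprr2d and Sprr2i. It lay between the others for Sprr2f and Sprr2h and was the dimmest for Sprr3.

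Of 40 other cornified envelope genes on the list, 31 were measured. In ZsG plus 5 of the 31 rose and 0 fell against cTEC, where 0.599% of all genes were called higher, with a median of 1.30 over the 31. Kprp, a keratinocyte proline-rich protein, rose by 5.75 ± 0.54, from a geometric mean of 7.04 to 379 (limma adjusted p = 0.00781). Flg, which encodes filaggrin, the protein that packs keratin filaments, rose by 5.05 ± 0.51, from 131 to 4320.2 (limma adjusted p = 0.00781). The filaggrin-type genes Rptn and Hrnr rose by 3.34 ± 0.54 and 3.59 ± 0.61 (limma adjusted p = 0.0273 and 0.0329), and Ivl, which encodes involucrin, rose by 4.53 ± 0.87 (adjusted p = 0.0417). Sbsn and Krtdap, secreted proteins of differentiating keratinocytes, were 2.25 ± 0.61 and 2.68 ± 0.62 higher and did not pass (limma adjusted p = 0.102 and 0.0673). Lor, which encodes loricrin, was 3.39 ± 0.71 higher and did not pass either (limma adjusted p = 0.0512). The cTEC means of Kprp, Flg, Hrnr, Ivl and Lor lay within the Dap and Phe range, so the sizes of these differences depend on how dim signal is treated. With 50 added to each intensity, that of Kprp was 2.92 (limma adjusted p = 0.0128, from 0.00307 to 0.0676 over the alternatives). For 16 of the 31 genes both group means were within the range.

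Against cTEC, 3 of the 31 rose in mTEC and 0 fell, where 0.528% of all genes were called higher, with a median of 1.35: Kprp by 5.40 ± 0.54, Flg by 3.89 ± 0.51 and Krtdap by 4.03 ± 0.62 (limma adjusted p = 0.0275, 0.0324 and 0.0387). Both Kprp means were within the Dap and Phe range here, and with 50 added its difference was 2.60 (limma adjusted p = 0.0255, from 0.0017 to 0.145 over the alternatives). Rptn and Sbsn were 2.16 ± 0.54 and 1.97 ± 0.61 higher in mTEC than in cTEC and did not pass (limma adjusted p = 0.12 and 0.202). Nor did Hrnr, Ivl and Lor, which were 2.98 ± 0.61, 3.41 ± 0.87 and 3.57 ± 0.71 higher (limma adjusted p = 0.0733, 0.127 and 0.0679). In the comparison of ZsG plus with mTEC limma called 0 of 31, beside 0.22% of all genes. The median was 0.01, beside -0.33 over all genes. An unadjusted limma p under 0.05 was reached by 3 of 31 (2 higher and 1 lower), beside 3.2% of all genes higher and 10.2% lower. Rptn in ZsG plus was 1.17 ± 0.54 above its mTEC level (limma adjusted p = 0.39), or 0.07 above it when arrays were scaled on the hybridization controls. The count of 5 became 0 without cTEC replicate 1 or replicate 2, 2 without its replicate 3, and 2, 2 and 3 without mTEC replicates 1, 2 and 3. The count of 3 became 0 without any single array of mTEC or cTEC and 7 without ZsG plus replicate 3.

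The transglutaminases that cross-link these precursors were all measured, and 0 of 3 passed in any comparison. At an unadjusted limma p under 0.05 there were 0, 1 and 2 of 3 for ZsG plus against mTEC, ZsG plus against cTEC, and mTEC against cTEC, beside 13.4%, 18.7% and 12.3% of all genes. In ZsG plus against cTEC 1 was called with the filter, the offset, centring and without ZsG plus replicate 3. In mTEC against cTEC 1 was called in 7 of 19 alternatives, the filter among them. The filter left 1 of the 3 to test. Tgm3, the epidermal enzyme, had geometric means of 1911 in ZsG plus, 2695 in mTEC and 182 in cTEC, and it was 3.39 ± 0.81 and 3.89 ± 0.81 higher in the first and second of these than in the last (limma adjusted p = 0.0728 and 0.0779). Tgm5 had geometric means of 210.2, 977 and 102. It was 3.26 ± 1.32 higher in mTEC than in cTEC (limma adjusted p = 0.349).

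The S100 genes of the complex encode small calcium-binding proteins. Of 13 listed, 11 were measured and limma called 0 of them in each comparison, with 2, 4 and 5 at an unadjusted p under 0.05, beside the same 13.4%, 18.7% and 12.3% of all genes. Over the alternatives the calls numbered 0 to 2 in each comparison with ZsG plus and 0 to 5 in mTEC against cTEC, where 5 came with array weights. Their median difference was -0.75 for ZsG plus against mTEC, 0.83 against cTEC, and 2.12 between mTEC and cTEC. S100a10, a partner of annexin, differed in ZsG plus by -2.70 ± 0.57 from cTEC (limma adjusted p = 0.052) and by -2.46 ± 0.57 from mTEC (adjusted p = 0.131). S100a14 was 2.86 ± 0.68 higher in mTEC than in cTEC (limma adjusted p = 0.105).

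Of 24 transcription factors listed as regulators of keratinocyte differentiation, 23 were measured. Limma called 0 of 23 in each comparison, and an unadjusted p under 0.05 was reached by 1, 5 and 7, beside 13.4%, 18.7% and 12.3% of all genes. Over the alternatives the calls numbered 0 in ZsG plus against mTEC, 0 to 1 in ZsG plus against cTEC and 0 to 5 in mTEC against cTEC, where 5 came with array weights. The brightest were Jund and Jun, members of the AP-1 family. Jund in ZsG plus differed by 0.76 ± 0.51 from mTEC and by 0.94 ± 0.51 from cTEC (limma adjusted p = 0.535 and 0.352), and these became -0.34 and -0.21 when arrays were scaled on the hybridization controls. Jun differed by 0.46 ± 0.48 and 0.42 ± 0.48 (limma adjusted p = 0.696 and 0.671), or by -0.65 and -0.73 with that scaling.

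**Figure D4:**
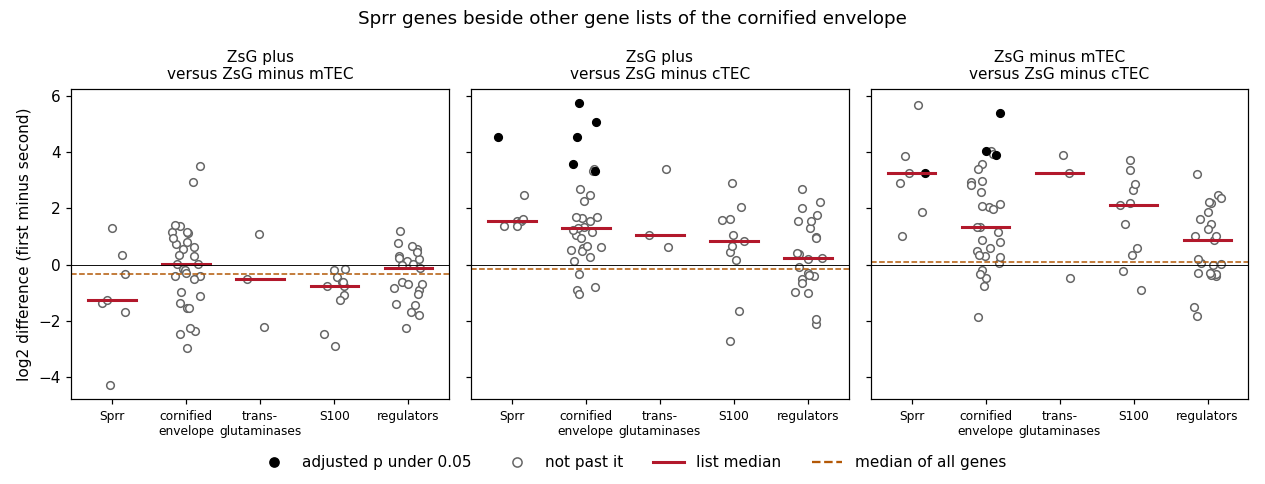
Each point is 1 measured gene's log2 difference (first group minus second) in 5 lists, filled where the limma adjusted p is under 0.05, with a red line at the list median, a dashed line at the median of all genes and sideways scatter for legibility only. The Sprr medians are -1.26, 1.56 and 3.24 from left to right, and the filled points lie among the Sprr and cornified envelope genes.

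Markers of some other cell types differed in the comparisons against cTEC. The 8 suprabasal keratinocyte markers summed to 29755 to 51083 in ZsG plus, 41213 to 51866 in mTEC and 3059 to 7139 in cTEC. Against cTEC 3 of 8 rose in ZsG plus and 2 of 8 in mTEC, where 0.599% and 0.528% of all genes were called higher. Krtdap is on this list and on the cornified envelope list. Of the thymocyte markers, 7 of 8 were measured, and they summed to 39404 to 53867 in cTEC against 6708 to 7077 in ZsG plus and 5179 to 8757 in mTEC. From their cTEC level 2 of 7 fell in ZsG plus and 1 of 7 in mTEC, where 1.14% and 0.0989% of all genes were called lower. The 6 fibroblast markers summed to 34363 to 52919 in cTEC against 4139 to 25464 and 4196 to 7500.1. In each of ZsG plus and mTEC 1 of 6, Dcn, was called lower than in cTEC, beside the same shares of all genes. Erythroid markers, 3 of 6 measured, summed to 445 to 1804 in ZsG plus, 2247 to 2379 in mTEC and 61.0 to 525 in cTEC, and 0 of 3 were called. Of the 8 dendritic cell and macrophage markers 0 were called in limma's test. There 0, 1 and 1 had an unadjusted p under 0.05, beside 13.4%, 18.7% and 12.3% of all genes. The part of these markers, and of the brighter hybridization controls in ZsG plus, in the Sprr differences was not tested.

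The 5 named genes outside the family whose profile was most like the members' mean profile were Msi1, Pip5k1b, S1pr1, Pcdh7 and Cldn4. Likeness was the root mean square difference between log2 profiles, each centred on its mean, over the 9 arrays, and 8806 genes were ranked. The differences were 0.45, 0.51, 0.54, 0.55 and 0.58. Those of the members themselves lay between 0.82 for Sprr1b and 1.84 for Sprr2i. The 5 genes were picked as the closest of all ranked, so their smaller values follow from that choice. Msi1, which encodes an RNA-binding protein, had geometric means of 3138 in ZsG plus, 7618 in mTEC and 1024 in cTEC. For Cldn4, which encodes a tight junction protein, they were 4016, 5789 and 502. The values that define this likeness carry no test.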

How the data were processed

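Each array had 45101 probe sets, and the authors' deposited numbers are linear intensities. Per the labels' protocols, 5 ng of total RNA was amplified and biotin-labelled. The software behind these intensities was not given in the sources used here, but their trimmed mean (2% off each end) was 1250 on every array. The number of arrays limits precision.

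The analysis used log2 intensity without an offset. In GEO's platform annotation 34958 probe sets carry 1 symbol, 932 several and 9211 none. Those with 1 symbol were used, the brightest standing for its gene. Limma 3.58.1 in R 4.3.3 (lmFit, eBayes) was fitted to all 9 arrays with 1 coefficient per group, with two-sided p-values adjusted by the Benjamini-Hochberg method over 18194 genes and a threshold of 0.05. An error after ± is a standard error from this fit, intervals are 95%, and differences are log2 unless said otherwise. The fit pools a gene's spread over all groups, so spread in 1 group enters its error in every comparison. On simulated data with known differences added, the fit was checked only for the median size of the differences recovered. That check does not bear on the calls. With 3 arrays against 3, an exact permutation test cannot go below p = 0.10, so none was used. Separate animals are not named in the labels, so the p-values reflect just the spread between these samples, which could be technical.

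The members and gene lists were chosen with earlier results of these data known. Named from each list were up to 4 genes past the threshold per direction by smallest p and up to 2 of the brightest others. Ivl and Lor, outside this rule, were named after their values were seen. The 5 most alike genes were taken from those brighter than the median gene, passing over unnamed clones. Upstream windows came from RefSeq (GRCm38.p6), aligned with Biopython 1.88. Figures were drawn with matplotlib 3.10.9. Alternatives covered probe set choice, filter, offset, normalization, array weights, the replicate block, the arrays fitted and each array left out. Scaling on hybridization controls was chosen after seeing the data.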

Additional observations from a re-analysis of the deposited data

How the results depend on the processing

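Over 19 alternatives, Sprr1a in ZsG plus against cTEC stayed between 3.38 and 4.99 and was called in 15 (limma adjusted p 0.00272 to 0.0895). In mTEC against cTEC it was called in 9 (adjusted p 0.00428 to 0.174), and in ZsG plus against mTEC in none (0.241 to 0.844). Members called in ZsG plus against cTEC (1) were 0 with only 6 arrays or the replicate block and 0 to 2 with an array left out. In mTEC against cTEC (1) they were 0 with all probe sets, centring, hybridization-control scaling or the replicate block, 2 with the offset or array weights, and 0 to 1 with an array left out. The cause was not tested.

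The members' median in ZsG plus against mTEC (-1.26) was -0.51 with the 40th percentile filter, which left 4 members, -0.64 with the offset, -0.66 with quantile normalization, -0.63 with centring, -2.36 with hybridization-control scaling and -1.40 to -0.42 with an array left out. In ZsG plus against cTEC (1.56) it was 0.40 with hybridization-control scaling, which moved the median of all genes to -1.29 there and to -1.43 against mTEC, and 0.90 to 2.67 with an array left out. Between mTEC and cTEC (3.24) it was 1.65 to 3.77 with an array left out. Of 390 single-member values, 8 changed sign: Sprr2f in ZsG plus against mTEC (0.17 with quantile normalization, 0.27 with centring, -1.46 to 0.60 with an array left out), Sprr3 (-0.76 with hybridization-control scaling, -0.37 to 0.71) and Sprr2d (-2.52 to 0.72) in the same comparison, and Sprr1b in ZsG plus against cTEC (-0.03 to 2.67).

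Genes past the threshold in ZsG plus against mTEC (40, 7.5% of them higher) numbered 82 with all probe sets, 101 with the offset, 15 with quantile normalization (26.7% higher), 3 with centring (33.3% higher), 712 with hybridization-control scaling, 0 with only 6 arrays (1785 at an unadjusted limma p under 0.05), 0 with array weights (1705), 0 with the replicate block (2320) and 0 to 230 with an array left out. In ZsG plus against cTEC (317, 34.4% higher) they numbered 536 with all probe sets, 496 with the mean over probe sets, 504 with the filter, 660 with the offset, 1581 with hybridization-control scaling (2.40% higher), 0 with only 6 arrays (2704), 37 with array weights, 16 with the replicate block and 0 to 735 with an array left out, and 53.2% and 58.3% were higher with quantile normalization and centring. In mTEC against cTEC (114) they numbered 43, 216, 176 and 334 with all probe sets, the mean, the filter and the offset, 178 with quantile normalization, 48 with centring, 0 with hybridization-control scaling (1981), 548 with only 6 arrays, 1220 with array weights, 0 with the replicate block (2172) and 0 to 304 with an array left out. The cornified envelope count of 5 became 3 with hybridization-control scaling, 0 with only 6 arrays and 2 with array weights or the block. Same-numbered samples correlated between -0.015 and 0.0132 in their deviations from group means. Values near 0 over all genes, dim ones included, cannot show whether the numbers pair the samples.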

Other observations

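Another 3 probe sets were annotated to several copies of Sprr2a, so their signal belongs to no single gene. The brightest of them read 22648, 12545 and 8364 in ZsG plus, 17816, 15585 and 11344 in mTEC, and 4094, 3134 and 14619 in cTEC. For this probe set cTEC replicate 3 lay within the range of both other groups, and the other 2 lay below all 6 of their arrays. The next read 22392, 6112 and 10959.7, then 15926, 18020.1 and 12306, then 6698, 5188 and 11524 in the same order, and the last read 84.2, 559 and 127, then 214, 457 and 348, then 187, 157 and 969. cTEC replicate 3 was also the brightest array of its group for Sprr1a, Sprr1b, Sprr2f, Sprr2h and Sprr2i.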
